A study of Mus musculus with 9 samples.

Results

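The genes described here are the orphan receptor gene Gpr3, the β-arrestin genes Arrb1 and Arrb2, and the receptor kinase genes Adrbk1, Grk5 and Grk6. They were taken by symbol, with no rule on measured values, and are 6 of the 23413 genes in the count table of liver macrophages from mice fed a normal chow (NC) or a high-fat diet (HFD). All 6 passed the filter on low counts that left 11393 genes for testing. Diphenyleneiodonium (DPI), the compound given to part of the mice, inhibits NADPH oxidases and, by earlier work that the study cites, activates GPR3.

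GPR3 is an orphan receptor that couples to the stimulatory G protein and raises cyclic AMP without an added ligand. G protein-coupled receptor kinases phosphorylate active receptors, and β-arrestins bind the phosphorylated receptor, uncouple it from its G protein, lead it to clathrin-coated pits and scaffold kinases of their own. In macrophages this machinery acts on chemokine receptors, prostaglandin receptors and β-adrenergic receptors, among others.

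The study sorted F4/80+CD11b+Gr1low macrophages, labelled Kupffer cells (KCs), from mouse livers and sequenced their polyadenylated RNA. There were 2 libraries from NC-fed mice, 3 from HFD-fed mice given the vehicle PEG3000 and 4 from HFD-fed mice given DPI. The mice were C57BL/6 males with no engineered allele named, 5 weeks old when the diets began and fed them for 8 weeks. Vehicle or DPI at 2 mg/kg was injected into the peritoneum every 5 days from week 3. No injection is named for the NC mice, so diet and vehicle injection cannot be told apart in any comparison with NC. The labels of the samples instead name an exposure of purified cells to DPI at 500 nM for 24 h, and the series' design text names the treatment of mice. The sample titles number 1 mouse for each library, whereas the study's legends name more mice per group than there are libraries. Which mice entered which library is not given in the sources used here, so p-values measure the spread between these libraries.

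Library totals ran from 3534325 to 15585775 counts, of which 27% to 44.5% fell on the ribosomal RNA precursor Rn45s. A count of 3, taken as the smallest told apart from none, was worth 0.184 to 1.02 CPM (counts scaled by TMM factors to a fixed library total), a limit that covers counting error only. The NC libraries were the least alike, with a rank correlation over genes of 0.74, against 0.838 to 0.887 within the other groups. All 6 genes were at least 2-fold higher in NC library 1 than in NC library 2, as were 22.9% of all tested genes, and values without NC library 1 therefore stand beside those with all libraries in the comparisons with NC.

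The cell type label was only in part borne out by marker genes. General macrophage markers summed to 15150 to 44040 CPM and monocyte markers to 3305 to 6957 CPM. Lyz2 held most of the macrophage list's counts in every library (62983 to 700389), against 219 to 2315 for Emr1 and 10 to 215 for Mertk. The 8 KC markers together reached 0.743 to 103 CPM, with 3.10 CPM in NC library 1 and 103 CPM in NC library 2. Counts of Clec4f, a KC lectin gene, were 0 and 244 in NC, and Marco, a scavenger receptor gene, was at 0 in 8 of the 9 libraries. The cells are therefore called liver macrophages below. In these bulk samples, fewer cells of a type and less RNA per cell cannot be told apart.

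Markers of other cells also differed between libraries. The list of 6 endothelial genes summed to 119 and 172 CPM in NC, 6.44 to 11.1 CPM with vehicle and 4.27 to 123 CPM with DPI. The list of 7 hepatocyte genes summed to 114 and 189 CPM in NC, 18.7 to 47.3 CPM with vehicle and 34.4 to 82.5 CPM with DPI. Neutrophil markers were at 991 and 2946 CPM in NC, 2338 to 3642 CPM with vehicle and 743 to 5188 CPM with DPI. The B cell list, at 14.9 and 72.1 CPM in NC, was higher in all 3 vehicle libraries (93.9 to 188 CPM) and ran from 15.6 to 423 CPM with DPI. Of the 3 eosinophil markers 2 were in the table, and they summed to 88.7, 96.1 and 58.1 CPM in DPI libraries 1, 2 and 4, to 0.371 CPM in DPI library 3 and to at most 1.81 CPM in the NC and vehicle libraries. The part of these cells in the results below was not tested.

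**Figure D1:**
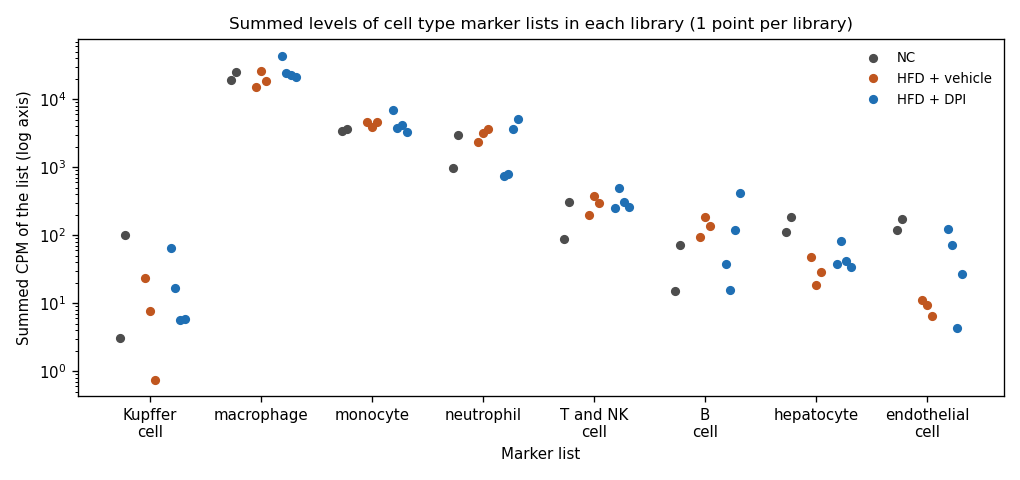
Summed CPM of 8 marker lists (log axis), with 1 point per library coloured by group. Macrophage and monocyte lists lie at 3305 CPM or more in every library, the KC list lies between 0.743 and 103 CPM, and the endothelial list is lower in all 3 vehicle libraries (6.44 to 11.1 CPM) than in both NC libraries (119 and 172 CPM).

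The genes are spread over 5 chromosomes (GRCm38, the assembly of mm10, positions from GENCODE). Gpr3 lies at chr4:133209340-133212536 on the minus strand, Arrb1 at chr7:99535466-99606771 on the plus strand and Arrb2 at chr11:70432635-70440828 on the plus strand. Adrbk1, now named Grk2, lies at chr19:4286001-4306222 on the minus strand, Grk5 at chr19:60889749-61095968 on the plus strand and Grk6 at chr13:55445072-55460927 on the plus strand. The 250 bases before the transcription start are shown for Gpr3, whose counts were near the limit of detection, and for Grk5 and Grk6, the pair of related kinases whose ratio is compared below. They come from RefSeq on GRCm38.p6, whose promoter table used here held windows for Gpr3, Grk5 and Grk6, and are read 5′ to 3′ on the strand of the gene. They cover chr4:133212537-133212786, chr19:60889499-60889748 and chr13:55444822-55445071. Capitals mark the GC box GGGCGG.
Gpr3: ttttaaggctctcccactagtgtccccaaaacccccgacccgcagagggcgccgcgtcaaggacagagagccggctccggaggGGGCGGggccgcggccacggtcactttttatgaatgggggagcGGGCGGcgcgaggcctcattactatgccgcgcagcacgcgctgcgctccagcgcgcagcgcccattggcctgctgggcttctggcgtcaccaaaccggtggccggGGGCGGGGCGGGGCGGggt
Grk5: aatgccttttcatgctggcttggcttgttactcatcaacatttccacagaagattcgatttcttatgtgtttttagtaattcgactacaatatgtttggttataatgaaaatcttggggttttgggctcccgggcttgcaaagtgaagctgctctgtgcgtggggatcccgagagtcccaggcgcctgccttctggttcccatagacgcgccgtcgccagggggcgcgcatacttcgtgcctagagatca
Grk6: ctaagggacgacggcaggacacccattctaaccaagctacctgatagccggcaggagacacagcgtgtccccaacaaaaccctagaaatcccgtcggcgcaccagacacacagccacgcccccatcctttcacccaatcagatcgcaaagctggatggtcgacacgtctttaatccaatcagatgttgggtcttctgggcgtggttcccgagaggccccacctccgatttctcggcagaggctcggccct

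The Gpr3 window had a GC content of 70.8% and 29 CpG, against 49.6% and 13 CpG before Grk5 and 58% and 16 CpG before Grk6. It held 5 copies of GGGCGG, of which the 3 nearest the start overlap their neighbours by 1 base, and the Grk5 and Grk6 windows shown held none. For Grk6 the table lists 3 starts, of which the one at the GENCODE start is shown, and the windows before the other 2, which lie 257 and 259 bases downstream, each held 4 copies. On both strands, 32.7% of 32851 such windows held GGGCGG. The cyclic AMP response core TGACGT (6.47% of windows), the ETS core AGGAAG (29.5%) and the TATA box TATAAA (12.4%) were in none of the 3 windows. These matches are letters in a window and were not set against binding data.

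Per kilobase of merged exons, Adrbk1 and Arrb2 were the highest of the 6 genes in every group and Gpr3 the lowest. In NC the mean levels in CPM per kilobase were 55.2 for Adrbk1, 23.8 for Arrb2, 9.80 for Grk6, 7.16 for Arrb1, 6.05 for Grk5 and 0.633 for Gpr3. With vehicle they were 24.5 for Arrb2, 23.6 for Adrbk1, 4.91 for Grk6, 2.22 for Grk5, 2.09 for Arrb1 and 0.487 for Gpr3. With DPI they were 26.8 for Adrbk1, 22.9 for Arrb2, 7.32 for Grk6, 2.59 for Grk5, 2.29 for Arrb1 and 0.187 for Gpr3. Neighbours in this order whose ranges overlapped were Adrbk1 and Arrb2 in every group, Grk5 and Arrb1 in every group, and Arrb2 and Grk6 as well as Grk6 and Arrb1 in NC. Within HFD, Grk6 was above Grk5 in 3 of 3 vehicle libraries and 4 of 4 DPI libraries on this scale, and the ranges did not overlap. The order was the same per kilobase of the longest transcript. Length thus places Arrb2 above Arrb1 in all 9 libraries, although Arrb1 had more counts than Arrb2 in NC library 1, since the merged exons of Arrb1 span 7448 bases and those of Arrb2 2019 bases.

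**Figure D2:**
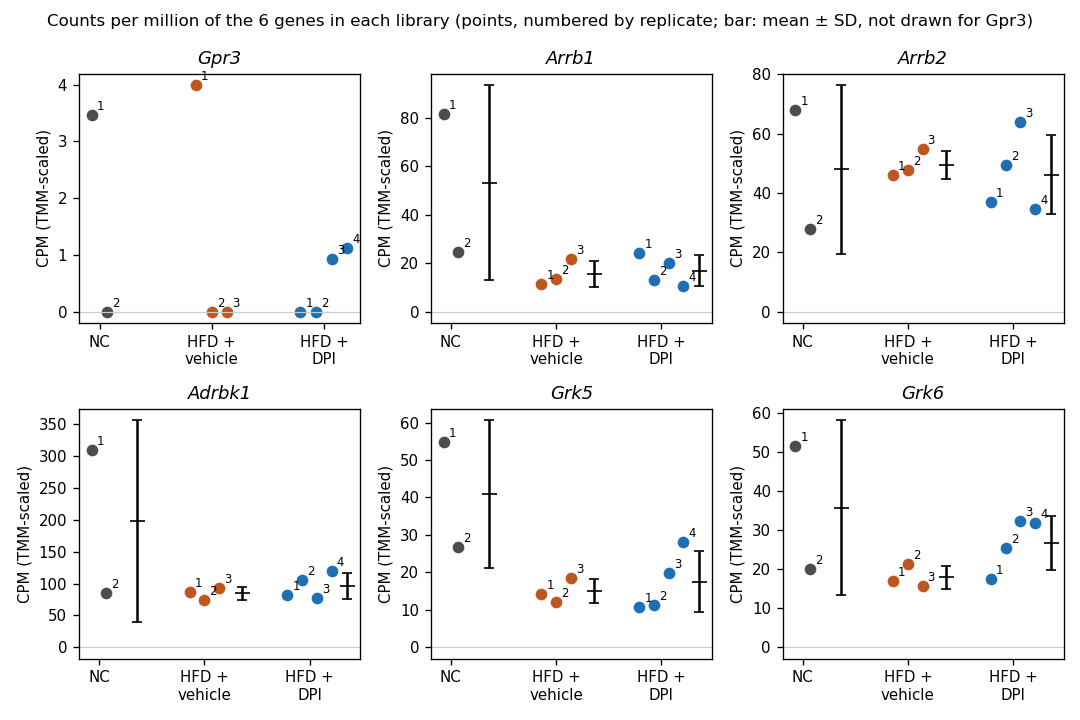
CPM (TMM-scaled) of each of the 6 genes in the 9 libraries, with points numbered by replicate within NC, HFD with vehicle and HFD with DPI, and the mean ± SD beside them except for Gpr3. NC library 1 is the highest of the 9 libraries for Arrb1 (81.8), Arrb2 (68.1), Adrbk1 (310.0), Grk5 (54.8) and Grk6 (51.5).

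Gpr3, the receptor, was near the limit of detection. The NC libraries held 19 and 0 of its counts, the vehicle libraries 18, 0 and 0, and the DPI libraries 0, 0, 5 and 11. Each group thus held libraries with and without a detectable count, and the groups overlapped. The deepest library, DPI library 1, was among the 5 libraries at 0, which allows a level of up to 0.184 CPM there. The log2 fold change was -0.38 for HFD against NC (95% interval -5.53 to 4.77) and -1.31 for DPI against vehicle (95% interval -5.69 to 3.07), so neither a large rise nor a large fall could be told from no change with these libraries. Without NC library 1, the NC library left held 0 counts of Gpr3, and a fitted fold change against it gives no size. Gpr6 and Gpr12, the closest relatives of Gpr3, were at 0 counts in all 9 libraries.

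Arrb1, which encodes β-arrestin1, was lower on HFD than on NC. Its level was 81.8 and 24.8 CPM in NC, 11.5, 13.4 and 21.8 CPM with vehicle, and 24.3, 12.9, 20.2 and 10.6 CPM with DPI. All 7 HFD libraries were below both NC libraries, although DPI library 1 (24.3 CPM) lay just under NC library 2 (24.8 CPM). The log2 fold change for HFD against NC was -1.77 (standard error, SE, 0.57, unadjusted p = 0.00816, BH-adjusted p = 0.258, edgeR's quasi-likelihood test with the Benjamini-Hochberg (BH) method over all tested genes). It met the threshold of the study's methods, a change of 2-fold or more with p under 0.05 before adjustment, and did not pass the adjustment. Without NC library 1 it was -0.67 (SE 0.64), short of that threshold.

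Arrb2, which encodes β-arrestin2, did not meet the threshold in any comparison. It had 68.1 and 27.8 CPM in NC, 45.9, 47.9 and 54.8 CPM with vehicle, and 37.1, 49.6, 63.8 and 34.5 CPM with DPI. The NC libraries enclosed all 7 HFD libraries. For HFD against NC the log2 fold change was 0.05 (95% interval -0.88 to 0.97), negative with library size scaling alone and 0.84 without NC library 1, and a change of up to about that interval's ends was not detectable with these libraries.

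The balance of the 2 arrestin genes within a library does not depend on how the library is scaled. Arrb1 made up 54.6% and 47.2% of the counts of both genes on NC, 20.1%, 21.9% and 28.5% after vehicle, and 39.6%, 20.7%, 24.1% and 23.5% after DPI. Every HFD library lay below both NC libraries, but the exact 95% binomial intervals of NC library 2 (41.2% to 53.2%) and DPI library 1 (36.6% to 42.7%) overlapped. The mean share was 50.9% ± 5.23 in NC (SD, n = 2), 23.5% ± 4.42 with vehicle (SD, n = 3) and 27.0% ± 8.57 with DPI (SD, n = 4).

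The mean log2 ratio of Arrb1 to Arrb2 differed by -1.76 between vehicle and NC, a 3.39-fold lower ratio with vehicle. A two-sided exact permutation test gave p = 0.1, the smallest that 3 against 2 libraries allow, and 0.2 after Benjamini-Hochberg adjustment over 6 ratio tests. Leaving out NC library 1 gave a difference of -1.55, and leaving out any other library gave between -1.98 and -1.63. For DPI against NC the difference was -1.52 (exact permutation p = 0.0667, the smallest possible, 0.2 after adjustment), and -1.31 without NC library 1. Without that library the ratio of vehicle to NC moved less than the log2 fold change of Arrb1, which went from -1.77 to -0.67. The endothelial list, though not its gene Pecam1, was also higher in both NC libraries (119 and 172 CPM) than with vehicle (6.44 to 11.1 CPM). DPI library 1, whose Arrb1 share was the highest on HFD, had 123 CPM of this list. DPI library 2, with 73.0 CPM of that list, had an Arrb1 share of 20.7%, and the part of endothelial RNA in the ratio was not tested.

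**Figure D3:**
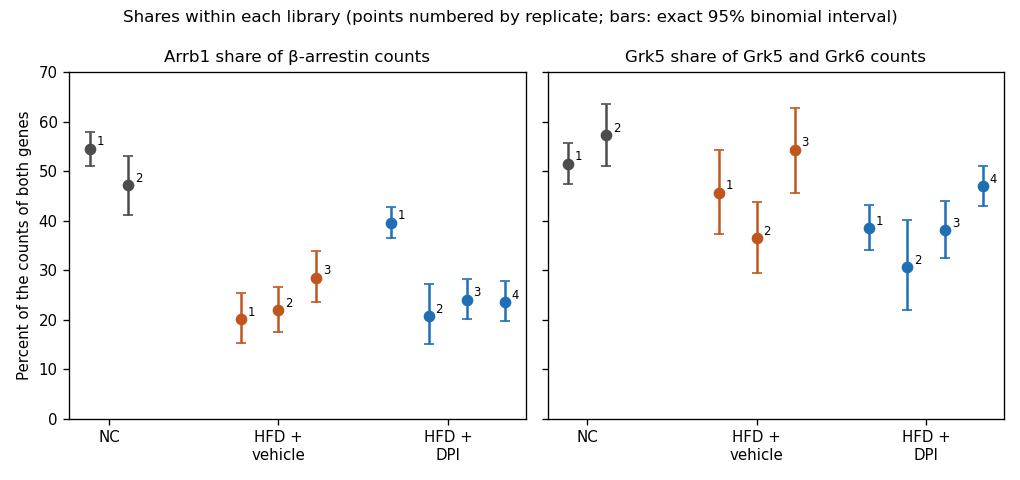
Share of Arrb1 in the counts of Arrb1 and Arrb2 (left) and of Grk5 in the counts of Grk5 and Grk6 (right) in each library, in percent, with exact 95% binomial intervals. The Arrb1 share is 47.2% and 54.6% in the NC libraries and 20.1% to 39.6% in the 7 HFD libraries, while the Grk5 share of vehicle library 3 (54.3%) lies between those of the NC libraries (51.5% and 57.4%).

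Adrbk1 encodes GRK2, the widely expressed receptor kinase that is drawn to the membrane by free Gβγ subunits. It had 310.0 and 85.5 CPM in NC, 86.8, 73.5 and 93.4 CPM with vehicle, and 81.5, 106, 76.8 and 119 CPM with DPI. NC library 1 stood apart, 3.62-fold above NC library 2, while NC library 2 lay within the range of both HFD groups. For HFD against NC it had a log2 fold change of -1.23 (SE 0.44, unadjusted p = 0.0145, BH-adjusted p = 0.289, edgeR), and it was -0.01 (SE 0.41) without NC library 1. With the replicate number of the libraries as a block in the fit it was -1.07 (unadjusted p = 0.0506, edgeR), short of the study's threshold.

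Grk5 encodes a kinase held at the membrane by phospholipids that can also enter the nucleus. Its level was 54.8 and 26.9 CPM in NC, 14.2, 12.2 and 18.6 CPM with vehicle, and 10.8, 11.2, 19.9 and 28.2 CPM with DPI. The vehicle libraries were all below both NC libraries, and DPI library 4 was above NC library 2. Its log2 fold change on HFD against NC was -1.45 (SE 0.55, unadjusted p = 0.0195, BH-adjusted p = 0.314, edgeR). It was -0.84 (SE 0.64) without NC library 1, -1.37 without vehicle library 1 and -1.32 without vehicle library 2, all short of the study's threshold.

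Grk6 encodes a membrane-bound kinase of the Grk5 subfamily that is well expressed in immune cells. Its level was 51.5 and 20.0 CPM in NC, 16.9, 21.2 and 15.6 CPM with vehicle, and 17.3, 25.5, 32.3 and 31.7 CPM with DPI. NC library 2 lay within the range of the vehicle libraries. For Grk6 the diet comparison gave a log2 fold change of -0.997 (SE 0.49, unadjusted p = 0.0636), which did not meet the study's threshold, and it was -0.15 without NC library 1.

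In all, 3 of the 6 genes (Arrb1, Adrbk1 and Grk5) met the study's threshold as lower for HFD against NC and none as higher, where 4.63% of all tested genes were lower and 7.03% higher. None of the 6 had an adjusted p under 0.05 with all libraries, as 0.0614% of the tested genes did. Without NC library 2, the adjusted p was 0.0285 for Arrb1 and 0.0162 for Adrbk1 (edgeR), and 568 of all tested genes passed in place of 7. For Arrb1 and Grk5 the groups did not overlap, as for 12.5% of tested genes in that direction. Without NC library 1 the count of the 6 at the threshold was 0, where 535 of 12407 tested genes were lower and 1009 higher. Without NC library 2 it was 4, all lower, where 841 of 12334 tested genes were lower and 1793 higher.

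DPI against vehicle asks whether treatment with this agonist moved the transcripts of the receptor and its regulators. None of the 6 genes met the study's threshold with edgeR, DESeq2 or edgeR's exact test, and 0 had an unadjusted p under 0.05 with edgeR, where 2.84% of all tested genes met the threshold (1.5% higher, 1.34% lower) and 4.13% had such a p. Nor were the groups of any of the 6 genes free of overlap, as they were for 5.85% of all tested genes (3.38% higher, 2.48% lower). The log2 fold changes were 0.13 for Arrb1 (95% interval -0.92 to 1.19), -0.10 for Arrb2 (95% interval -0.87 to 0.67) and 0.18 for Adrbk1 (95% interval -0.62 to 0.98). For Grk5 it was 0.23 (95% interval -0.78 to 1.24) and for Grk6 it was 0.57 (95% interval -0.34 to 1.49). The intervals thus leave room for differences of more than 1.5-fold in at least 1 direction for each gene. Grk6 had the largest difference of the 5 genes with counts in every library, with 3 of the 4 DPI libraries above all 3 vehicle libraries and DPI library 1 (17.3 CPM) within their range. The signs for Arrb1, Arrb2 and Grk5 turned when single libraries were left out.

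The Arrb1 to Arrb2 ratio differed by 0.24 on the log2 scale between DPI and vehicle (two-sided exact permutation p = 0.686, 0.686 after adjustment). That difference became -0.05 without DPI library 1. For the ratio of Grk5 to Grk6, Grk5 took 51.5% and 57.4% of the counts of both genes on NC, 45.7%, 36.4% and 54.3% after vehicle, and 38.5%, 30.6%, 38.1% and 47.0% after DPI. The NC and vehicle ranges overlapped, whereas all 4 DPI libraries were below both NC libraries. The log2 ratio differed by -0.52 between vehicle and NC (exact permutation p = 0.3, 0.377 after adjustment), or -0.69 without NC library 1, and by -0.41 between DPI and vehicle (exact permutation p = 0.314, 0.377 after adjustment). Between DPI and NC it differed by -0.94 (exact permutation p = 0.0667, the smallest that 4 against 2 libraries allow, 0.2 after adjustment), or -1.11 without NC library 1.

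DPI against NC shares the NC libraries with the diet comparison and the DPI libraries with the treatment comparison. Arrb1 had a log2 fold change of -1.64 (SE 0.53, unadjusted p = 0.00787, BH-adjusted p = 0.335, edgeR) with no overlap of groups. Adrbk1 had -1.04 (SE 0.41, unadjusted p = 0.0230) and Grk5 -1.22 (SE 0.51, unadjusted p = 0.0311), both with overlapping groups. These 3 genes met the study's threshold as lower, as did 3.05% of all tested genes, with none of the 6 higher (6.24% of tested genes), none passing the adjustment (0.00878%) and Arrb1 alone without overlap (8.5% in that direction). Without NC library 1, Arrb1 had -0.53, Grk5 -0.61 and Adrbk1 0.17, all smaller in size than the threshold requires. The count of the 6 at the threshold was 1 without DPI library 1 (336 of 11171 tested genes lower), where Adrbk1 had -0.97 and Grk5 -1.04. It was 2 without DPI library 2 (276 of 11335 lower), where Grk5 had -1.02. It was also 2 without DPI library 3 (265 of 11213 lower), where Adrbk1 had -0.95. Each of these values was short of the threshold. Without NC library 2, Arrb1 had -2.22, Adrbk1 -1.66 and Grk5 -1.61.

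**Figure D4:**
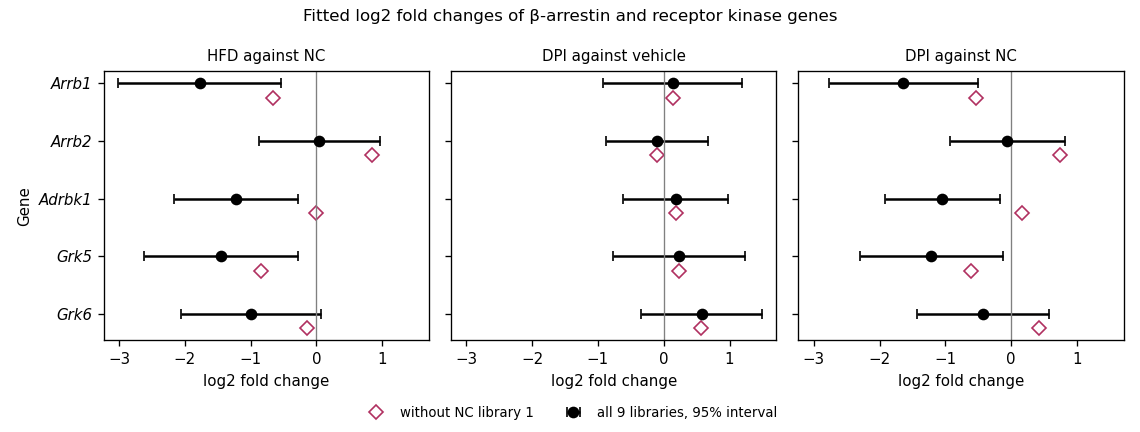
Log2 fold changes (filled points, with 95% intervals from the fit of all 9 libraries) of the β-arrestin and receptor kinase genes in 3 comparisons, with the value without NC library 1 (open diamonds). In both comparisons with NC the diamonds lie to the right of the points, from -1.77 to -0.67 for Arrb1 and from -1.23 to -0.01 for Adrbk1 for HFD against NC, and the DPI against vehicle values stay between -0.10 and 0.57.

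Around these genes, 7 lists of 103 genes of the same pathway were described, of which 74 were tested. For HFD against NC, 3 met the study's threshold as higher and 8 as lower, which is 14.9% of those tested against 11.7% of all tested genes. Scaled by library size alone, 1 was higher and 10 lower. The median log2 fold change was -0.12 over the lists and 0.03 over all tested genes. For DPI against vehicle 1 was higher (Gng11) and 1 lower (Ap2b1), 2.70% against 2.84%, and for DPI against NC 4 were higher and 2 lower, 8.11% against 9.29%, or 4 higher and 5 lower with library size alone. No list gene had an adjusted p under 0.05 in any comparison. In the diet comparison the list count was 7 without vehicle library 1, 5 without vehicle library 2 and 4 without vehicle library 3. Over all genes 1090 of 11352 tested, 1226 of 11219 and 1027 of 11356 met the threshold in these fits. Without NC library 1 fewer list genes met the threshold in both comparisons with NC, and without NC library 2 more did. Over all tested genes more met it without either NC library.

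The list of proteins that β-arrestins scaffold, mainly kinases and ubiquitin enzymes, held 7 of these 11 genes in the diet comparison. For HFD against NC, 2 of its 17 tested genes met the threshold as higher and 5 as lower, against 7.03% and 4.63% of all tested genes, with a list median of 0.14. Of these 7 genes, only Nedd4 (-2.91) and Pde4d (2.25) kept a difference of 2-fold or more without NC library 1, and neither met the threshold there. Nfkbia, the NF-κB inhibitor that β-arrestins bind and that NF-κB itself induces, had 298 ± 42.6 CPM in NC (SD, n = 2) and 619 ± 64.1 CPM with vehicle (SD, n = 3). Its groups did not overlap, as for 15% of tested genes in that direction, and the log2 fold change was 1.05 (SE 0.37) with all libraries. It was 0.93 without NC library 1, 0.97 without vehicle library 2, 0.77 with library size alone and 0.93 with the replicate number as a block, all short of the threshold. Map3k5, which encodes the stress kinase ASK1, had 494 and 182 counts on NC against 136, 128 and 107 in the vehicle libraries, with a log2 fold change of -1.22 that became -0.34 without NC library 1 and that missed the threshold without vehicle library 2 or 3 as well. The other genes of this list at the threshold, named after their values were seen, were the kinase genes Akt1 and Mapk3, the phosphatase subunit gene Ppp2ca and the phosphodiesterase gene Pde4d. Akt1 had 746 and 83 counts on NC and 152, 118 and 99 after vehicle, so that the groups overlapped in CPM, and its log2 fold change turned from -1.51 to 0.78 without NC library 1. Ppp2ca, with 325 and 119 counts on NC and 104, 110 and 33 after vehicle, also overlapped and went from -1.25 to -0.37. Mapk3 went from -1.09 to -0.81 and Pde4d from 3.23 to 2.25, both short of the threshold without NC library 1. Both genes of the list at the threshold as higher, Nfkbia and Pde4d, encode neither a kinase nor a ubiquitin enzyme. Each of the 4 genes also missed it without vehicle library 3, Akt1, Ppp2ca and Pde4d without vehicle library 2, and Akt1 and Mapk3 without vehicle library 1.

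Nedd4, which encodes a ubiquitin ligase recruited to receptors, had 50 and 43 counts on NC, 4, 3 and 7 after vehicle, and 87, 8, 6 and 11 after DPI. Scaled to CPM, all DPI libraries were also below both NC libraries, DPI library 1 among them, whose 87 counts came at the largest library total. Nedd4 averaged 8.57 CPM over the NC libraries, against 2.57 CPM over the DPI libraries. The vehicle libraries were all far below both NC libraries, and the log2 fold change for HFD against NC was -3.01 (SE 1.17, BH-adjusted p = 0.327, edgeR). It was -2.91 without NC library 1 (unadjusted p = 0.0556, edgeR), -2.87 without vehicle library 1 and -2.69 without vehicle library 2, all short of the threshold. The endothelial list, though not its gene Pecam1, was high and low in most of the same libraries. In DPI library 1, however, Nedd4 lay below both NC libraries and the list between them. It had 119 and 172 CPM in NC, 6.44 to 11.1 CPM with vehicle and 123 CPM in DPI library 1, but DPI library 2 had 73.0 CPM of it and 8 counts of Nedd4. Its part in the Nedd4 result was not tested. For DPI against NC, Pde4d, whose product degrades cyclic AMP, met the threshold as higher, with 0 and 8 counts on NC, 9, 34 and 54 after vehicle and 45, 26, 20 and 123 after DPI. Its log2 fold change there was 3.19 (SE 1.37, unadjusted p = 0.0360, BH-adjusted p = 0.445, edgeR). It fell short of the threshold without NC library 1 (2.21, unadjusted p = 0.117), without DPI library 2 (3.10) or 4 (2.72) and with only the 2 groups in the fit (3.20).

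Among the 9 tested regulators of G protein signalling, Rgs1, an inhibitor of Gi and Gq signalling induced in activated leukocytes, was higher in all 3 vehicle libraries than in both NC libraries. It had 75.7 ± 26.9 CPM in NC (SD, n = 2), 389 ± 176 CPM with vehicle (SD, n = 3) and 237 ± 132 CPM with DPI (SD, n = 4). Its log2 fold change for HFD against NC was 2.36 (SE 0.60, unadjusted p = 0.00156, BH-adjusted p = 0.153, edgeR). Without NC library 1 it was 2.05 and still met the study's threshold. The B cell list moved the same way, from 14.9 and 72.1 CPM in NC to 93.9, 188 and 138 CPM with vehicle. DPI library 2, with 15.6 CPM of that list, held 521 counts of Rgs1 at the smallest library total, against 311 and 507 counts in NC. The part of B cells in the Rgs1 result was not tested. With DPI the log2 fold change of Rgs1 stood at -0.71 against vehicle, which did not meet the threshold. Against NC it stood at 1.65, which did with all libraries but not without NC library 1 (1.33). Rgs16 was at 0 counts in both NC libraries and had 5, 8, 36 and 47 counts with DPI, at least 6.56-fold higher against a floor of 3 counts per library, or 0.552 CPM. The unadjusted p was 0.0157 with all libraries, and the threshold was narrowly missed without NC library 1.

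Rgs2, which blunts Gq and Gs signalling, had the smallest p of that list for DPI against vehicle. It had 547 ± 89.7 CPM with vehicle (SD, n = 3) and 356 ± 24.1 CPM with DPI (SD, n = 4), with no overlap of groups, as for 2.48% of all tested genes in that direction. The log2 fold change was -0.62 (SE 0.22, unadjusted p = 0.0126, BH-adjusted p = 0.999, edgeR), smaller in size than the threshold requires.

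Of the 18 tested G protein subunit genes, 3 met the threshold as lower for HFD against NC and none as higher, where 4.63% of all tested genes were lower and 7.03% higher. Without NC library 1 none of these 3 genes was 2-fold lower, as given below for each. Gnb2, a Gβ subunit gene, had 1018 and 358 counts on NC, 164, 238 and 181 after vehicle, and 1014, 144, 289 and 457 after DPI. In CPM it was 126 ± 83.8 in NC (SD, n = 2), 41.5 ± 4.47 with vehicle (SD, n = 3) and 52.8 ± 6.86 with DPI (SD, n = 4), and all 7 HFD libraries were below both NC libraries. The log2 fold change was -1.60 (SE 0.40, unadjusted p = 0.00130, BH-adjusted p = 0.142, edgeR) for HFD against NC and -0.68 without NC library 1. For DPI against NC it was -1.25 (SE 0.37, unadjusted p = 0.00438, BH-adjusted p = 0.267, edgeR) and -0.33 without NC library 1. Gnal, an α subunit gene of the stimulatory class, had 212 and 34 counts on NC and 21 to 51 after vehicle, and its log2 fold change went from -1.72 to 0.11 without NC library 1. Against NC, the DPI libraries gave -1.70 for Gnal, at the threshold, and 0.13 without NC library 1. Single vehicle or DPI libraries left out also took Gnal off the threshold in both comparisons. Gng11, a γ subunit gene, had 29 and 0 counts on NC and 0 in all vehicle libraries, at least 4.06-fold lower against the floor, a difference that rests on NC library 1 alone. For DPI against vehicle Gng11 met the threshold as higher, with 41, 2, 0 and 18 counts after DPI (unadjusted p = 0.0449, BH-adjusted p = 0.999, edgeR). The groups overlapped at 0, the mean with DPI was at least 1.93-fold the floor, or 1.29-fold without DPI library 1, and the threshold was missed under 6 of 15 alternatives.

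The remaining lists held few genes at the threshold. None of the 18 tested endocytosis genes met it for HFD against NC in the fit used throughout, with the filter on low counts and all libraries, where 11.7% of all tested genes did. Rab4a, with 3, 0 and 23 counts after vehicle and 0 in NC, met it there with DESeq2 (unadjusted p = 0.0269), with no filter on low counts, without vehicle library 2 and without DPI library 3. Ap2b1, the AP2 subunit gene whose product binds β-arrestin, was the single gene of that list to meet it for DPI against vehicle, with 63.1 ± 37.8 CPM with vehicle (SD, n = 3) and 30.3 ± 9.63 CPM with DPI (SD, n = 4). Its groups overlapped, and its log2 fold change went from -1.06 to -0.54 without vehicle library 1. The threshold was also missed without vehicle library 3 and without DPI library 1, 3 or 4. Rab4a, a gene of receptor recycling, was at 0 counts in both NC libraries and had 36, 3, 0 and 59 with DPI, at least 4.18-fold higher against the floor. Its groups overlapped at 0, the mean was 1.95-fold the floor without DPI library 4, and the threshold was missed under 9 of 18 alternatives, the fit without NC library 1 among them (unadjusted p = 0.113). Of the α-arrestin genes and of the genes of proteins that bind receptor kinases, none met the threshold in any comparison with all libraries. Without NC library 2 the calmodulin genes Calm2 (1.16 for HFD against NC) and Calm3 (-1.03 for DPI against NC) met it. Adrbk2, which encodes GRK3 and is the relative of Adrbk1, had 57.8 ± 4.84 CPM in NC (SD, n = 2), 48.3 ± 0.477 CPM with vehicle (SD, n = 3) and 52.7 ± 27.1 CPM with DPI (SD, n = 4). The log2 fold change of Adrbk2 for HFD against NC was -0.26 (SE 0.47), and -0.16 without NC library 1. The visual arrestin gene Arr3 was at 0 counts in every library, and the rod kinase gene Grk1 had at most 10.

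**Figure D5:**
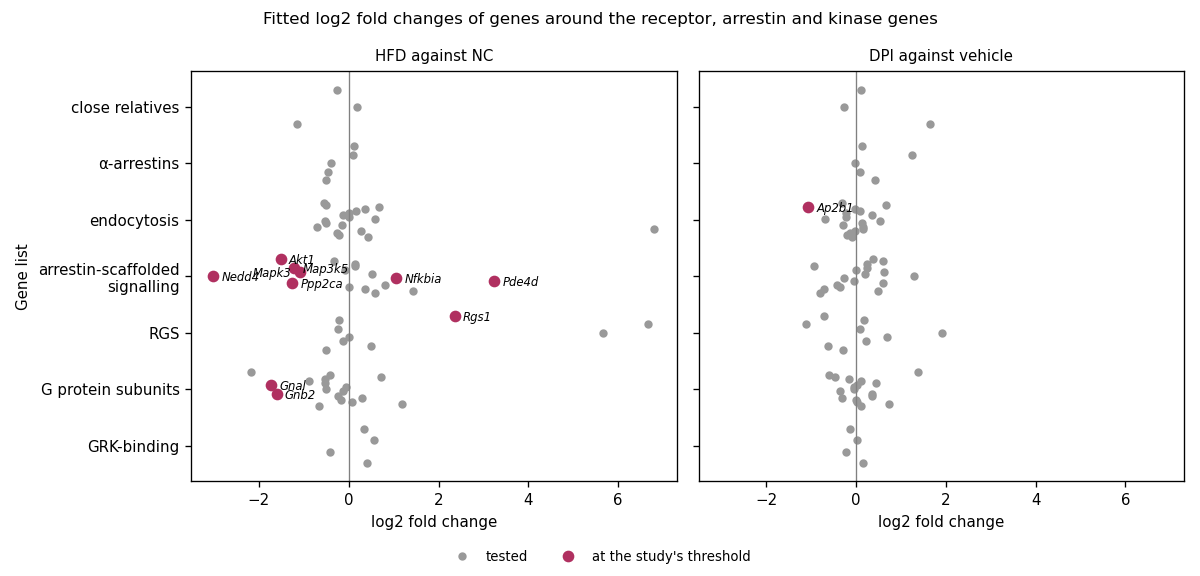
Log2 fold changes of the tested pathway genes by list for HFD against NC (left) and DPI against vehicle (right), with 1 point per gene and named points for those at the study's threshold. Gng11, whose fitted value rests on groups at 0 counts, is left out. On the left most named points lie in the list of proteins scaffolded by arrestins, mainly kinases and ubiquitin enzymes, from -3.01 for Nedd4 to 3.23 for Pde4d, and on the right Ap2b1 (-1.06) is the single named point.

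Likeness of pattern was described by Pearson's r of log2 CPM over the 9 libraries, which share depth, scaling and the gap between the NC libraries, among all tested genes. All genes named were picked as the highest among the tested genes, and their r was not tested. The genes most like Gpr3 were Clint1 (r = 0.962), Atad2b (r = 0.959) and Snx22 (r = 0.932). Gpr3 held 0 counts in most libraries, so its r follows mainly which libraries held any count. For Arrb1 they were Dnajc28 (r = 0.976), Trappc1 (r = 0.975) and Sgsh (r = 0.943), and for Arrb2 Hdgf (r = 0.930), Sec23a (r = 0.930) and Kat5 (r = 0.925). Adrbk1 was most like Sfpq (r = 0.976), Gnai2 (r = 0.972) and Prpf4b (r = 0.965). Grk5 was most like Uri1 (r = 0.968), Tspan13 (r = 0.960) and Senp6 (r = 0.949), and Grk6 most like Ddx18 (r = 0.981), Paxbp1 (r = 0.958) and Maz (r = 0.952). No gene stood among the 3 most like more than 1 of the 6. Between the 6 genes themselves, r was highest for Adrbk1 with Grk5 (0.779) and with Grk6 (0.763), and it was 0.381 for Arrb1 with Arrb2.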

How the data were processed

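Polyadenylated RNA of sorted liver macrophages was analysed in 9 libraries, grouped by the labels. The authors deposited raw whole-number counts per gene without normalization. The study's methods name bowtie2 and RSEM, the processing notes of the labels name TopHat2 and edgeR, and both name mm10. Every column of the table belongs to a library used here.

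The test was edgeR 4.0.16 under R 4.3.3 (filterByExpr, TMM, quasi-likelihood fit of 3 groups in 1 model without covariates), with Benjamini-Hochberg adjustment over 11393 genes. The biological coefficient of variation was 0.65. The test was also run on simulated counts, in which all libraries shared the same dispersion. The simulated NC libraries had no gap like that of the real ones, so that run cannot speak for the comparisons with NC. Gene ratios, with 0.5 added to each count, were compared by two-sided exact permutation tests, adjusted over 6 tests. Pattern likeness used log2 CPM with a prior count of 2. Intervals are at 95%. Reads were amplified and carry no molecular identifiers, so binomial intervals and floors cover counting error only. Positions and exon lengths came from GENCODE M21.

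The 6 genes, the pathway and marker lists and the tests were chosen with earlier results of these data known. All 6 genes were named, with up to 3 genes per pathway list and comparison by smallest p among those at the study's threshold, optionally the 1 with the smallest p where none met it, and the 3 genes most like each of the 6. Other marker lists (T and NK cells, 89.2 to 492 CPM, B cells, 14.9 to 423 CPM, dendritic cells, 14.9 to 42.1 CPM, platelets, 1.49 to 16.6 CPM, and eosinophils, 0 to 96.1 CPM) were summed likewise. As alternatives, counts were scaled by RLE factors or library size or used without Rn45s, and the others were no filter or at least 10 counts in every library, DESeq2 1.42.0, edgeR's exact test, 2 groups only, thinned counts, the replicate number as a block, other ratio pseudocounts, and each library left out in turn. Tables and plots were made with matplotlib 3.10.9, pandas 2.3.3, scipy 1.17.1 and numpy 2.4.6 under Python 3.11.15.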

Additional observations from a re-analysis of the deposited data

Results flagged for a closer look

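In the DPI group, 1 library stood apart from the other 3 for 2 pathway genes out of 27 sets of 4 values examined by Dixon's criterion, which chance meets in about 1 of 20. Txnip, an α-arrestin gene, had 170.0 CPM in DPI library 4 and 117 to 122 CPM in the others, a gap of 0.904 of the range. Rgs2 had 392 CPM in DPI library 4 and 342 to 348 CPM in the others, a gap of 0.895 of the range.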

How the results depend on the processing

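Every comparison with NC rested on 2 libraries that differed widely. With each library left out in turn, 0 to 4 of the 6 genes met the study's threshold for HFD against NC and 0 to 3 for DPI against NC, with 0 in both when NC library 1 was out. Arrb1 met it in both comparisons with NC under 18 of 19 alternatives, the exception being the fit without NC library 1. No gene of the 6 met it for DPI against vehicle under any alternative. With each library left out in turn, the list genes at the threshold ran from 4 (without vehicle library 3) to 18 (without NC library 2), from 0 to 2 and from 1 to 14 in the 3 comparisons, and all genes from 1027 to 2634, from 187 to 543 and from 830 to 2626.

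Left-out libraries also turned signs of log2 fold changes. With NC library 1 out, the NC library left held 0 counts of Gpr3, so its highest value in each comparison with NC (6.18 and 4.86) is a fitted number and neither a size nor a bound. For HFD against NC, Gpr3 ran from -1.35 to 6.18 (0.21 without vehicle library 2, 0.24 without vehicle library 3), Arrb2 from -0.43 to 0.84, Akt1 from -2.33 to 0.78 and Gnal from -2.47 to 0.11. For DPI against vehicle, Arrb1 ran from -0.10 to 0.44 (-0.05 without vehicle library 1), Arrb2 from -0.30 to 0.016, Grk5 from -0.10 to 0.41 and the Arrb1 to Arrb2 ratio from -0.048 to 0.43. For DPI against NC, Gpr3 ran from -2.66 to 4.86, Arrb2 from -0.53 to 0.74 (0.04 without DPI library 1, 0.06 without DPI library 4), Adrbk1 from -1.66 to 0.17, Grk6 from -0.92 to 0.42, Adrbk2 from -0.46 to 0.13 and Gnal from -2.45 to 0.13. Where 1 NC library remained, it was assumed to vary like the other groups.

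Scaling by library size alone moved the median of all genes to -0.26, 0.12 and -0.17, turned Arrb2 to -0.27 for HFD against NC and gave Grk6 -1.29 there, at the threshold. With it 539 genes were higher and 933 lower for HFD against NC, in place of 801 and 528, 196 and 101 in place of 171 and 153 for DPI against vehicle, and 546 and 624 in place of 711 and 347 for DPI against NC. At least 10 counts in every library left 726, 202 and 527 genes at the threshold in the 3 comparisons, with fewer genes tested, and 1 list gene in the treatment comparison and 3 for DPI against NC. No filter gave 602 genes for DPI against vehicle. Fits of 2 groups gave 5 list genes for HFD against NC, and in the treatment comparison they gave 1, as did thinned counts. The cause of these shifts was not tested.

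Adjusted calls over all genes numbered 312, 2 and 219 with DESeq2, in place of 7, 0 and 1. They numbered 170, 0 and 132 with edgeR's exact test and 52, 0 and 22 with no filter on low counts. Same-numbered libraries did not deviate together (correlations of -0.0222 to 0.0841), so the numbers were not taken as pairs. With the replicate number as a block, 2 of the 6 genes (Arrb1 and Grk5, both lower) met the threshold in each comparison with NC. Of 11393 tested genes, 897 then met it for HFD against NC (287 lower), 401 for DPI against vehicle and 818 for DPI against NC (281 lower). In these fits 3 list genes met it for HFD against NC and 1 in the treatment comparison. Log2 fold changes turned for Arrb2 (-0.028 on HFD against NC, 0.0028 with DPI against vehicle), Grk5 (-0.13 for DPI against vehicle) and Sag (-0.71 for DPI against vehicle).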
